A study of Homo sapiens with 4 samples.

Results

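Ferroptosis is a form of cell death driven by iron and by the peroxidation of membrane lipids. Cystine taken up through system Xc- feeds glutathione synthesis, and glutathione is used by GPX4 to reduce lipid peroxides. The genes described here act on the lipid and iron side of that process, downstream of or beside the cystine uptake that the study examined. They are GPX4, the lipid peroxide reductase, AIFM2 (also called FSP1), which keeps coenzyme Q reduced at membranes, ACSL4 and LPCAT3, which activate polyunsaturated fatty acids and place them in phospholipids, TFRC, the receptor that imports transferrin-bound iron, FTH1 and FTL, the heavy and light chains of ferritin, and NCOA4, the receptor that delivers ferritin to autophagy. m6A is written on mRNA by a methyltransferase complex whose catalytic subunit is METTL3, and readers of the YTH family bind it and can change the decay of the transcript.

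The members were the peaks whose summit lay in 1 of 8 hg19 windows, 1 window for each of these 8 genes and 268.0 kb in all. There were 3 such peaks, 1 of the 9441 in the NC-sh list and 2 of the 12252 in the METTL3-sh list. They lay in the windows of 2 genes, LPCAT3 (both lists) and TFRC (METTL3-sh list), and the other 6 windows held no listed peak in either list. The share of all genes, or of windows of like size, that hold a listed peak was not computed. These counts are thus not read as a trait of the 8 genes.

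The study sequenced 4 libraries from H1975, an established human lung adenocarcinoma (LUAD) cell line. Cells had received a control shRNA (NC-sh) or a shRNA against METTL3 (METTL3-sh) by lentivirus for 48 h, and 1 Input and 1 MeRIP library was made per condition. MeRIP (methylated RNA immunoprecipitation) pulls down RNA fragments with an antibody to m6A, and Input is a portion of the fragmented RNA set aside before the pulldown. The METTL3-sh target sequence is shown because it is the perturbation that separates both lists, and its 21 bases, in the study's list of oligonucleotides, are as follows.

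METTL3-sh: gctgcacttcagacgaattat

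Although the series' design text speaks of replicates, 1 peak list per condition was analysed, so the values below have no replicate check and no test between conditions was made. A difference between the lists cannot be told apart from variation between libraries. The names of all 9441 and 12252 peaks begin with H1299, another LUAD line, whereas the labels give H1975. The amount of METTL3, the level of each transcript and the identity of the cells were not analysed here, since the lists hold peaks alone.

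Each listed peak carries a pileup (MeRIP fragments over the summit, scaled by the peak caller) and a fold enrichment (pileup over the read density expected locally, with 1 added to both). One read corresponded to a pileup of 0.327 (NC-sh) or 0.364 (METTL3-sh), so reads at the summit could be recovered. Their median was 169.0 in the NC-sh list and 132.0 in the other. No listed peak had a fold enrichment below 6. Peaks were numbered along the genome by the caller, up to 15445 (NC-sh) and 20588 (METTL3-sh), and 38.9% and 40.5% of these numbers were missing from the lists. A missing number was read as a peak that had been called and then removed, so for each gene it could be asked whether any peak had been called between the nearest listed peaks on either side.

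LPCAT3 incorporates polyunsaturated chains into membrane phospholipids, the substrate of lipid peroxidation. Its window (chr12:7085000-7126000) held 1 peak in each list, with the same start and end, chr12:7084885-7085202, a length of 318 bp. The summit was at 7085028 in NC-sh and 1 bp further, at 7085029, with METTL3 knocked down. The peak sat at the very edge of the window, as these summits were 28 and 29 bp inside the boundary and 115 of its bases lay outside. The remaining part of the window held no listed peak. No number was missing between this peak and the next listed one, which stood 122.6 kb (NC-sh) and 122.7 kb (METTL3-sh) above the window, so no numbered peak had been removed from the rest of the LPCAT3 window in either library.

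The gene table used here (RefSeq, GRCh38.p14) lists 1 gene that overlaps LPCAT3, EMG1, a ribosome biogenesis gene. The lists carry no strand and no gene names, and an hg19 annotation was not used here. Window edges are whole kb, so an edge need not be the end of a gene, and the peak may lie outside LPCAT3. It therefore cannot be assigned to LPCAT3 or to EMG1, and its place in an exon or intron is not given. The peak is named by its window only.

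This peak was covered by many reads. The summit held 2370 reads in NC-sh (95% Poisson interval 2276 to 2467), more than 96.5% of the NC-sh list, and 2836 in METTL3-sh (2733 to 2942), more than 97.9% of that list. The local expectation was high as well, with a pileup of 93 (NC-sh) and 114.0 (METTL3-sh), above that of 99% and 99.2% of listed peaks. Fold enrichment was thus moderate, 8.26 in NC-sh (7.93 to 8.6) and 8.98 in METTL3-sh (8.65 to 9.31), higher than only 33.1% and 43.1% of each list. Intervals cover the counting of MeRIP reads only and take the local expectation as known, and reads without molecular identifiers are not independent molecules.

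Between the conditions, the LPCAT3 window peak differed little. The ratio of fold enrichment in METTL3-sh over NC-sh was 1.09, or 0.12 on the log2 scale (counting interval 0.040 to 0.20). That interval covers the counting of MeRIP reads alone. Error in both local expectations, which was not computed, would widen it and may exceed the counting error. That the interval lies above 0 therefore does not show a difference between the conditions. The same holds for the fold enrichment intervals of this peak, which do not overlap but also take the expectations as known. The median was 0.13 over the 6863 one-to-one pairs, in which a NC-sh peak overlapped a single METTL3-sh peak and the reverse. Of those pairs, 49.5% had a lower ratio than the LPCAT3 window peak. Its ratio was not past a fold of 1.5 in either direction, whereas 22.9% of pairs were at least 1.5 times higher in METTL3-sh and 12.8% at least 1.5 times lower. Pileup at the summit was higher in METTL3-sh by a ratio of 1.33, and the local expectation, on the same scale, by a ratio of 1.23. On the log2 scale these were 0.41 for pileup and 0.29 for the expectation, against medians over all pairs of 0.28 and 0.20, and 61.8% and 58.2% of pairs had a lower ratio. The typical pair was thus also higher in both measures. Unscaled reads at the summit had a ratio of 1.2 (exact interval 1.13 to 1.26), or 0.26 on the log2 scale, against a median of 0.13. Overlap of a NC-sh peak with a METTL3-sh peak was common, at 76.2% of the NC-sh list. Identical ends were not, since 0.146% of pairs had the same start and end, and 11.1% had summits within 1 bp, the median distance being 17 bp.

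**Figure D1:**
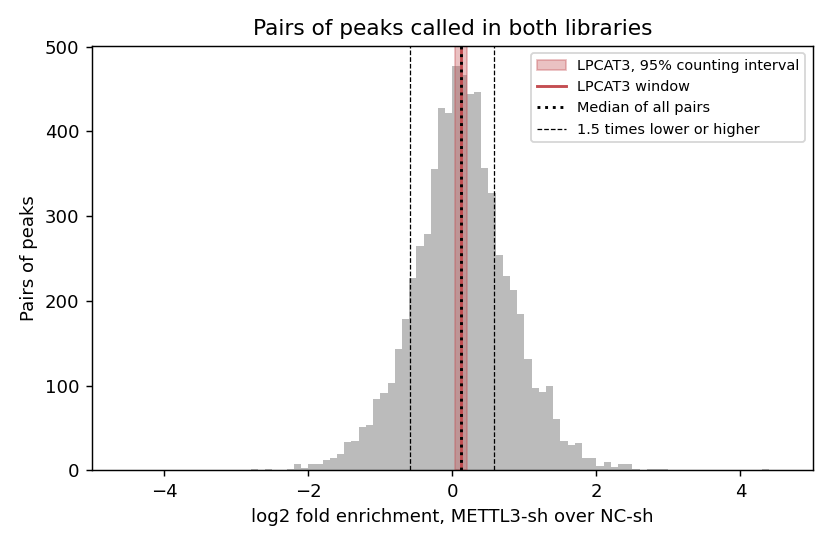
Histogram of the log2 ratio of fold enrichment, METTL3-sh over NC-sh (x axis), against the number of pairs of peaks (y axis), for the 6863 pairs. The red line marks the LPCAT3 window at 0.12, and the band is its counting interval, which takes both local expectations as known. The red line lies next to the dotted median of all pairs at 0.13 and between the dashed lines at a fold of 1.5.

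TFRC is the receptor through which transferrin-bound iron enters the cell, and its mRNA is a classical target of iron regulatory proteins. Its window (chr3:195754000-195810000) held 1 peak in METTL3-sh and no listed peak in NC-sh. The METTL3-sh peak was at chr3:195778665-195779000, with a length of 336 bp and a summit at 195778835, 24.8 kb from the lower and 31.2 kb from the upper end of the window. The gene table lists 1 gene overlapping TFRC, RNU7-18P, and as the lists carry no strand, the peak is called the TFRC peak by its window only. The summit held 610 reads (563 to 660), more than 82.9% of the METTL3-sh list. The local expectation was a pileup of 34, and fold enrichment was 6.37 (5.87 to 6.89), higher than only 7.39% of the list. At that expectation 575 reads would have given a fold enrichment of 6, so the peak was 35 reads above the lowest value kept, and its counting interval reached below it. The margin and the interval take the expectation of 34 as known, and its error was not computed.

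Presence in METTL3-sh alone was frequent, as 41.4% of the METTL3-sh list had no overlapping NC-sh peak. Among these 5067 peaks the TFRC peak was well covered, with more reads than 96.7% of them (median 54), and weakly enriched, with a higher fold enrichment than 13.9% (median 7.73). In NC-sh, 7 numbers were missing between the listed peaks on either side of TFRC, which stood 67.4 kb below and 404.2 kb above the window. The METTL3-sh gap had nearly the same ends, 67.4 and 405.5 kb away, and also lacked 7 numbers, 1 below and 6 above the TFRC peak. If missing numbers are removed peaks, 7 peaks had been called in this stretch in NC-sh and all were removed. On the same reading 8 had been called with METTL3 knocked down and 1 was kept. Whether 1 of the 7 removed NC-sh peaks lay at the TFRC site was not tested, as the lists do not hold their positions. The lists therefore do not show that the TFRC peak was absent from NC-sh.

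**Figure D2:**
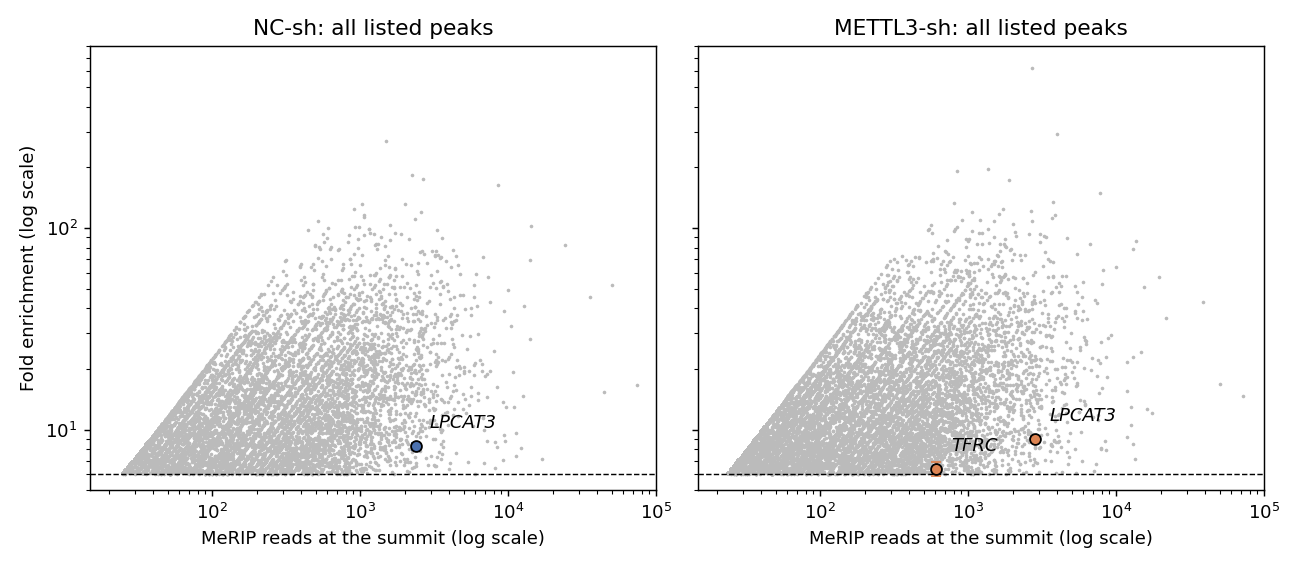
MeRIP reads at the summit (x axis, log scale) against fold enrichment (y axis, log scale) for all 9441 NC-sh and 12252 METTL3-sh peaks (grey points). Coloured points are the member peaks with 95% counting intervals, small enough to be hidden by the points in part. These intervals take the local expectation as known. Gene names give the window of each peak. The LPCAT3 window peak (8.26 and 8.98) and the TFRC window peak (6.37) have many reads, and the latter lies close to the dashed line at 6.

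The remaining lipid genes had no listed peak. ACSL4 activates arachidonic and adrenic acid for incorporation into phospholipids. In its window (chrX:108884000-108977000) the nearest listed peaks were 1486.8 kb below and 1390.2 kb above in NC-sh, against 1486.8 and 1392.0 kb with METTL3 knocked down. In NC-sh these flanking peaks carried consecutive numbers, so no numbered peak had been removed anywhere in the 2970.0 kb between them, ACSL4 included. In METTL3-sh 1 number was missing over 2971.8 kb. For GPX4 (chr19:1103000-1107000), the enzyme that detoxifies phospholipid hydroperoxides, the nearest listed peak was 50.8 kb (NC-sh) or 51.3 kb (METTL3-sh) away. The gap around it lacked 1 number in NC-sh, over 154.3 kb, and 6 in METTL3-sh, over 290.0 kb. For AIFM2 (chr10:71857000-71893000), 1 number (NC-sh) and 3 numbers (METTL3-sh) were missing. The NC-sh gap of AIFM2 was shorter, since a listed peak with a fold enrichment of 6.47 stood 18.9 kb above the window in NC-sh, whereas the first listed METTL3-sh peak on that side was 717.8 kb away.

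The remaining iron genes had no listed peak either. Around FTH1 (chr11:61727000-61736000) 3 numbers were missing in each list, and around FTL (chr19:49468000-49471000) 3 (NC-sh) and 2 (METTL3-sh) were missing. The nearest listed peaks were 163.0 and 162.7 kb from FTH1 and 93.5 and 82.4 kb from FTL. The same gene table names 27 pseudogenes after FTH1, 20 after FTL and 4 after NCOA4. These were counted by name, and how alike their sequences are was not tested. How reads matching several copies were counted is not given in the sources used here, so the lack of a ferritin or NCOA4 peak is uncertain on this account. Around NCOA4 (chr10:51565000-51591000), the ferritinophagy receptor, 2 (NC-sh) and 3 (METTL3-sh) numbers were missing. Both lists had their nearest peak 15.8 kb above the NCOA4 window, where fold enrichment was 9.68 (NC-sh) and 9.08 (METTL3-sh).

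**Figure D3:**
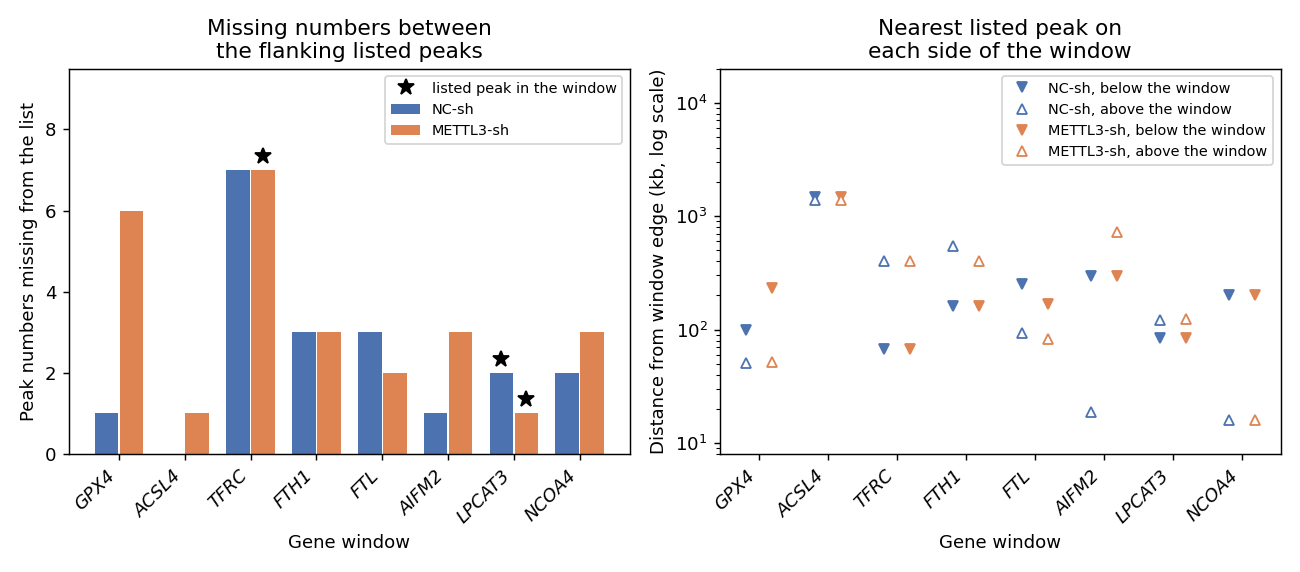
Left, peak numbers missing from each list between the listed peaks that flank a gene window (bars, y axis from 0), with stars where the window held a listed peak. Right, distance in kb (log scale) from each window edge to the nearest listed peak below (filled) and above (open). The NC-sh bar of ACSL4 is 0, TFRC has 7 in both lists, and the distances run from 15.8 kb at NCOA4 to 1486.8 kb at ACSL4.

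A missing number was again read as a peak called and then removed. In NC-sh 6 of the 7 windows without a listed peak, and in METTL3-sh 6 of 6, lay in a gap with at least 1 missing number. Over all gaps of at least 154.3 kb, this held for 52.7% (NC-sh) and 58.1% (METTL3-sh). The limit of 154.3 kb was the shortest gap around a member window in either list, and the shortest in METTL3-sh was 243.0 kb. Gaps differ in length and in the genes they hold, so these shares are a description. For those windows the lists show only that no peak was kept, and m6A below the limits of the lists was not detectable. The ACSL4 window in NC-sh and the LPCAT3 window beyond its edge in both libraries are the places where no number was missing. On this reading of the numbers, no peak had been called there.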

How the data were processed

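Peak lists of the NC-sh and METTL3-sh MeRIP libraries (1 library per condition) were analysed, and Input libraries were not analysed here. The submitters' processing notes name bcl2fastq, TopHat2 2.0.13, MACS2 2.1.0.20151222 and hg19. The deposited pileup is a signal scaled by 1 factor per library, and the deposited fold enrichment is a ratio to the local expectation with a pseudocount of 1. The deposited −log10 p and −log10 q values are those of the peak caller. Positions in bp are those of hg19, and the filter after calling is not given in the sources used here.

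Reads at the summit were computed as pileup divided by its step, and 100.0% of pileups lay within 0.02 of a whole number of steps. Pileup and fold enrichment together give the local expectation, and a Poisson tail computed from it gave −log10 p values of 420.2, 100.8 and 590.6 for the 3 member peaks, the same as deposited. Total depth is unknown, and summits held at least 25 (NC-sh) and 24 (METTL3-sh) reads. Peaks were paired by an overlap of at least 1 bp, with a fold of 1.5 used to describe size. Poisson and ratio intervals are 95% and exact. The steps were tested on simulated data. The windows, genes and lists were chosen with earlier results of these data known, and all 8 genes are named. EMG1 and RNU7-18P are named beyond that rule, after the values were seen. A list of other lipid and iron genes was not located, as no hg19 annotation was used here. Alternatives were stricter limits, other windows, overlaps and measures. Python 3.11.15, numpy 2.4.6, pandas 2.3.3, scipy 1.17.1 and matplotlib 3.10.9 were used.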

Additional observations from a re-analysis of the deposited data

How the results depend on the processing

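Of 29 alternatives to the counts of peaks and genes, the overlaps and the median ratio, 17 left the value in place and 12 moved it. With a fold enrichment of at least 12, 0 peaks and 0 genes were left in NC-sh and 0 and 0 in METTL3-sh, since no member peak exceeded 8.98. Narrowing each window by 100 bp on both sides, an alternative chosen after the data were seen, removed the LPCAT3 window peak. It left 0 peaks and 0 genes in NC-sh and 1 peak and 1 gene, TFRC, in METTL3-sh. The log2 ratio rests on 1 pair, that of the LPCAT3 window. It was 0.41 with pileup, 0.26 with reads at the summit and 0.50 with −log10 q in place of fold enrichment, and -0.0077 less the median of all pairs. Windows widened by 1 kb, keeping peaks whose −log10 q reached the joint median (36.6), an overlap of at least 50% and summits within 100 bp changed no count and no ratio. Apart from the widened windows, these settings could not have changed them. The LPCAT3 window pair shared its start and end, with summits 1 bp apart, and the lowest −log10 q of a member peak was 97.2. Fold enrichment near 6 limits what the lists can show. No paired analysis was possible because 1 MeRIP library stood for each condition.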
